A study of Danio rerio with 7 samples.

Results

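Collagen genes were examined in cells sorted from the injured zebrafish heart early and late in repair. The members were all gene IDs whose name in the supplied table is a collagen chain, that is COL, a type number, A and a chain number in any case, which gave 56 of 31388 IDs. The fish (Danio rerio, 3 to 9 months old) were postnb:CreERT2;ubb:loxP-GFP-loxP-mCherry in both groups. Their ventricles were cryoinjured, an injury by freezing, and all were given 10 µM 4-hydroxytamoxifen (4-OHT) overnight at 3 and at 4 days post injury (dpi). mCherry-positive cells of the ventricular apex were sorted at 7 dpi (4 pools, replicates 1, 2, 3 and 4) or at 60 dpi (3 pools, replicates 1, 2 and 4), each pool from 3 to 5 hearts. The label thus marks cells, and descendants of cells, in which the promoter of postnb, a periostin gene, drove the recombinase while 4-OHT was present, and the comparison asks how that lineage differed between the stages. Uninjured or unlabelled cells were not analysed here.

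Collagens are secreted or membrane proteins built from chains that wind into a triple helix in groups of 3. Fibrillar collagens (types I, II, V, XI, XXIV and XXVII here) form the load-bearing fibrils of scar and connective tissue, and FACIT collagens, which have interrupted helices, sit on the surface of those fibrils. Network collagens form sheets, with type IV in basement membranes and types VIII and X in hexagonal lattices. Beaded collagens form microfibrils close to cells, transmembrane collagens span the cell membrane, anchoring collagen VII ties epithelial basement membranes to the stroma, and multiplexins sit in basement membranes and carry an endostatin domain. In the injured heart, fibroblasts are known as the main makers of fibrillar collagen.

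Values were TPM, a transcript abundance corrected for gene length and scaled to the same fixed sum in each library, so levels may be compared between chains, and the read depth behind a value is unknown. Between 9844 and 15431 IDs reached 1 TPM per library, with the fewest in replicate 4 of each group. IDs without a name took 20.2, 40.0, 33.8 and 30.6% of the TPM at 7 dpi. At 60 dpi they took 19.2, 17.2 and 15.8%, below every 7 dpi pool. Statements on the overlap of genes or sums refer to TPM as deposited, and can change when TPM are rescaled over the named IDs. The marker lists showed transcripts of more cell types than fibroblasts in the sorted pools. A fibroblast list of 9 IDs, 2 of them the collagens col1a1a and COL1A2, held 3 IDs that rose and 1, a POSTN ID, that fell, and summed to 2584 to 4236 TPM at 7 dpi, against 4077 to 5084 at 60 dpi. Of 8 leukocyte IDs, 7 of them tested, 5 fell and none rose, and their sum was 1047 to 1674 TPM at 7 dpi, against 299 to 494 at 60 dpi. Over all tested genes, 3.20% rose and 3.68% fell in the test given below. Erythrocyte markers (4 IDs, none called) summed to 2916 to 6163 TPM and to 620 to 5393 TPM. Of 8 cardiomyocyte IDs, 7 were tested and 1 was higher at 60 dpi, and the untested ID was listed at 0 in all libraries. They summed to 310 to 688 TPM at 7 dpi. At 60 dpi the sum was 360 TPM in replicate 1 but 4052 and 2835 TPM in replicates 2 and 4. What part other cell types have in the values below was not tested, and in such pools fewer cells of a type and less RNA per cell cannot be told apart.

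The collagen total was close at both stages while its make-up differed. The 56 IDs together took 0.461, 0.608, 0.673 and 0.504% of all TPM at 7 dpi (replicates 1 to 4), and 0.739, 0.537 and 0.644% at 60 dpi (replicates 1, 2 and 4), and the groups overlapped. FACIT chains took 18.2% ± 2.203 of the collagen TPM at 7 dpi (SD, n = 4) and 11.5% ± 1.27 at 60 dpi (SD, n = 3), and every 60 dpi pool lay below every 7 dpi pool. Network chains took 3.20% ± 0.357 and 5.35% ± 0.326, transmembrane chains 0.273% ± 0.143 and 0.697% ± 0.0375, and anchoring chains 0.0183% ± 0.0180 and 0.620% ± 0.280, each with all 60 dpi pools above all 7 dpi pools. The share of fibrillar chains was 51.5% ± 0.827 at 7 dpi and 56.1% ± 3.91 at 60 dpi, and that of beaded chains 24.1% ± 1.59 and 24.4% ± 2.41, both with overlap. Unlike the FACIT share, the summed FACIT TPM as deposited overlapped. It was 761 to 1237 TPM at 7 dpi and 673 to 817 TPM at 60 dpi. A common factor per library can change the overlap of sums but not that of shares. Sums and shares over members are given here with no test.

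**Figure D1:**
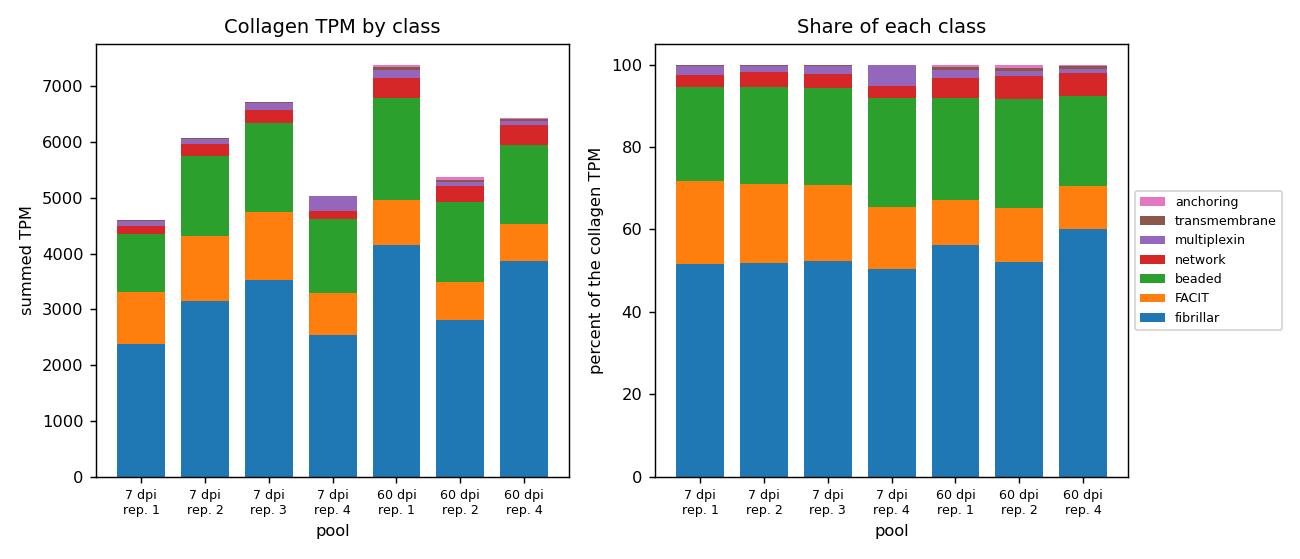
Collagen TPM by class in each of the 7 pools, as a sum (left, TPM) and as a share of the collagen TPM of the pool (right, percent). The FACIT share is 15.1 to 20.2% at 7 dpi and 10.5 to 12.9% at 60 dpi, and the network share is 2.81 to 3.62% and 4.99 to 5.62%.

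Of the 56 IDs, 35 passed the expression filter of at least 1 TPM in at least 3 libraries and were tested with limma on log2(TPM + 1), and 21 were not tested, 6 of which were listed at 0 in every library. With p adjusted over all 15130 genes by the Benjamini-Hochberg method at a threshold of 0.05, 4 collagen IDs rose and 3 fell, against a background of 6.88% of all tested genes called. The risen and fallen IDs were 11.4% and 8.57% of those tested, where 3.20% of all tested genes rose and 3.68% fell. In 15 of the 35 (42.9%) the groups did not overlap, 10 of them higher and 5 lower at 60 dpi, against 21.3% of all tested genes (10.3% higher and 11.0% lower). The median log2 fold change, 60 minus 7 dpi, was 0.46 over the tested collagen IDs and -0.04 over all genes. With TPM rescaled over the named IDs the median of all genes moved to -0.27, and the collagen median then lay 0.46 above it, in place of 0.50. That gap was smaller under other settings, with 0.16 under quantile normalization, 0.27 with no filter, 0.31 with a pseudocount of 5, and 0.30 without 7 dpi replicate 1, without 60 dpi replicate 1 or without 60 dpi replicate 4. It was larger with a pseudocount of 0.1 (0.61), with the replicate number as a block (0.56) and without 60 dpi replicate 2 (0.57). Without 7 dpi replicates 2, 3 or 4 it was 0.53, 0.56 and 0.54. The filter shapes these counts, because 5 IDs passed it through 1 group alone, 3 at 60 dpi and 2 at 7 dpi. The 3 at 60 dpi, both col7a1l IDs and COL8A2, are 3 of the 4 IDs that rose, and are also among the 10 without overlap. The share of risen IDs thus rests mostly on members let in through the group in which they are high. It cannot show an excess over the background. The number of collagen IDs that fell was 1 without 7 dpi replicate 2, without 7 dpi replicate 3 or without 60 dpi replicate 1, and 5 without 7 dpi replicate 4. Over all genes, 1041 were called, but 643 without 7 dpi replicate 2, 571 without 7 dpi replicate 3 and 580 without 60 dpi replicate 2.

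**Figure D2:**
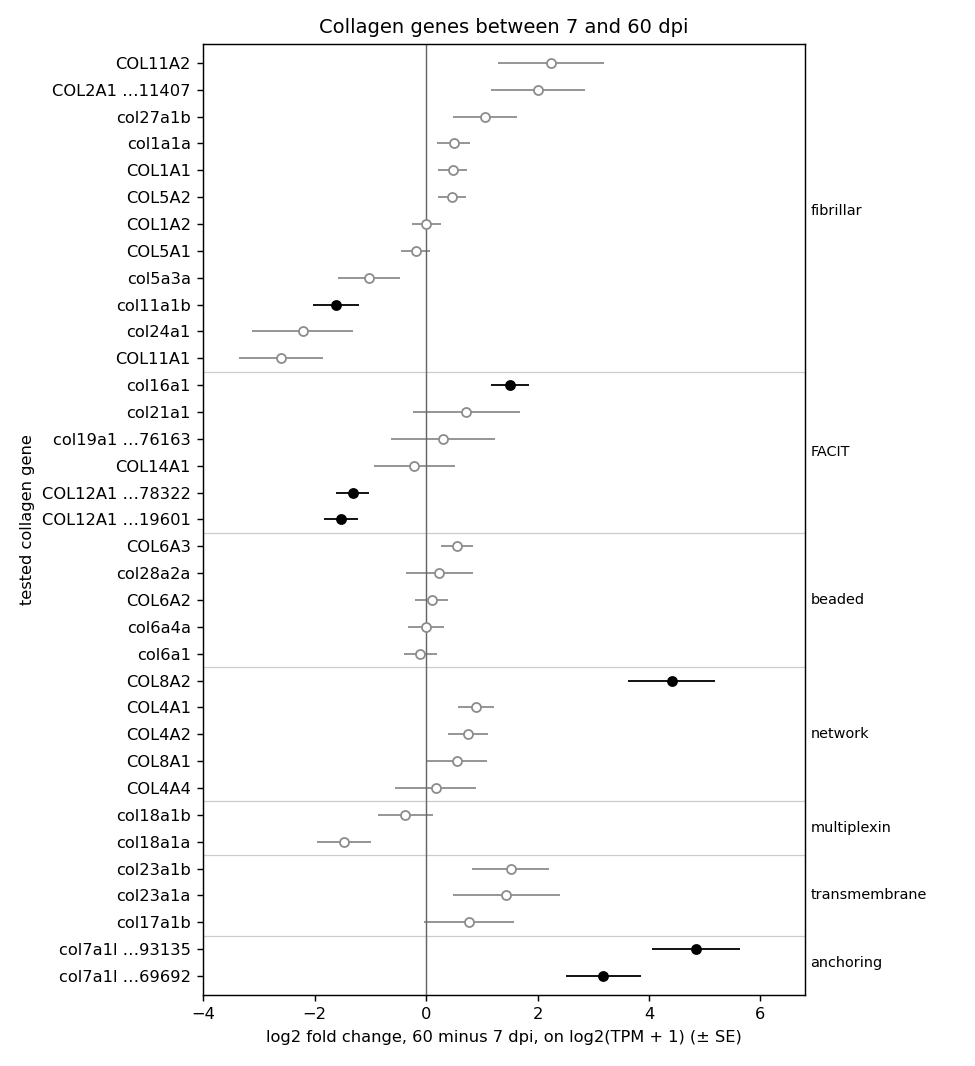
Log2 fold change (60 minus 7 dpi, on log2(TPM + 1)) of the 35 tested collagen IDs with its standard error, by class; filled points passed limma's adjusted p of 0.05. Filled points are col11a1b and both COL12A1 IDs on the lower side and col16a1, COL8A2 and both col7a1l IDs on the higher side. The values of both col7a1l IDs and COL8A2, at or near 0 in all 7 dpi pools, depend on the pseudocount.

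Type I chains made up most of the fibrillar collagen TPM, and no type I ID passed the test. col1a1a, an alpha 1 chain and the most abundant collagen ID at both stages, had 784, 1069, 1379 and 952 TPM at 7 dpi, against 1767, 985 and 1726 at 60 dpi, which ranked it 96th and 98th of all IDs by mean TPM. The 60 dpi pool of replicate 2 lay among the 7 dpi pools and the others lay above them (log2 fold change 0.49 ± 0.29 SE, limma adjusted p = 0.354; -0.02 with quantile normalization). A further ID named COL1A1 (ENSDARG00000035809) had 514, 714, 764 and 561 TPM at 7 dpi, against 1066, 730 and 869 at 60 dpi. Zebrafish carry an additional alpha 1 paralog, col1a1b, whose product joins type I trimers, but the name table does not say which ID is which. Replicate 2 was again the lowest pool at 60 dpi and the groups overlapped (adjusted p = 0.307). COL1A2, the alpha 2 chain, had 306, 405, 424 and 353 TPM and then 469, 320 and 336 TPM (adjusted p = 0.999, with a sign that depends on the scaling).

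The type I chains did not keep 1 ratio to each other. The ratio of COL1A1 to COL1A2 was 1.68, 1.76, 1.803 and 1.59 at 7 dpi and 2.27, 2.28 and 2.59 at 60 dpi. All 60 dpi pools thus lay above all 7 dpi pools, on a measure that a common factor per library, as in median-ratio or named-ID scaling, cannot change, though quantile normalization can. The ratio of col1a1a to COL1A2 was 2.56, 2.64, 3.26 and 2.70, then 3.77, 3.08 and 5.14, with overlap. Among the fibril-regulating chains of type V, which start fibrils and limit their width, the ratio of COL5A1 to COL5A2 (ENSDARG00000031678) went the other way, with 1.24, 1.59, 1.35 and 1.47 at 7 dpi and 0.965, 0.842 and 0.886 at 60 dpi. COL5A1 itself had 349 to 496 TPM at 7 dpi, against 327 to 384 at 60 dpi (adjusted p = 0.735). COL5A2 had 285, 311, 355 and 237 TPM and then 398, 388 and 427 TPM, higher in 3 of 3 late pools without passing (adjusted p = 0.322). Its log2 fold change was 0.46, and 0.19 with TPM rescaled over named IDs. These ratios were formed after the values were seen and carry no test.

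**Figure D3:**
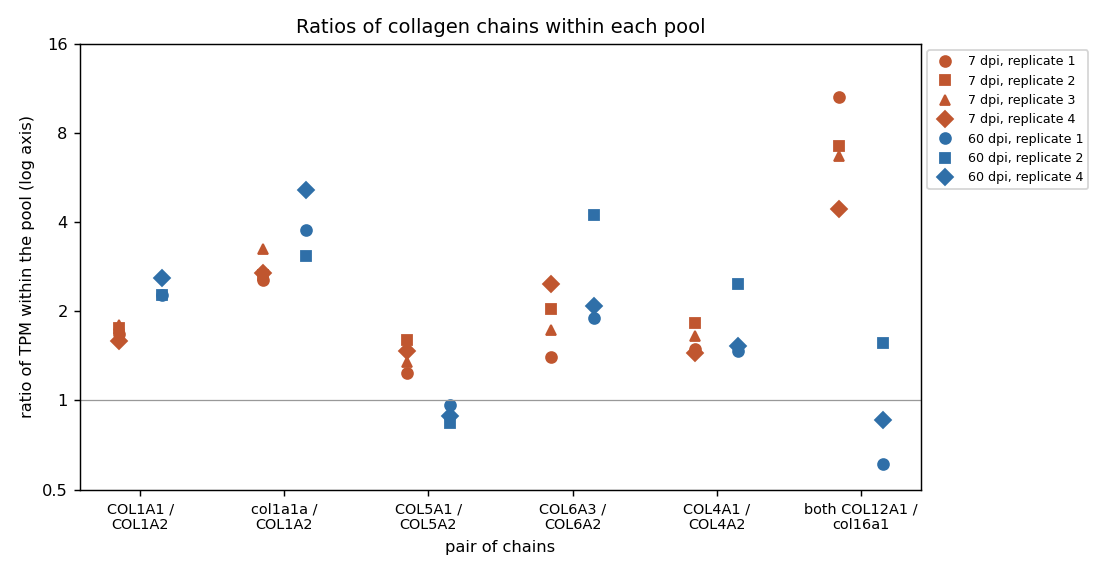
Ratio of the TPM of collagen chains within each pool (log axis), 7 dpi on the left and 60 dpi on the right of each position. The ratios COL1A1 to COL1A2, COL5A1 to COL5A2 and COL12A1 to col16a1 separate the stages, while those of types IV and VI overlap.

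Among the fibrillar IDs, col11a1b alone passed the test, and it fell. Type XI collagen forms mixed fibrils with types II and V and is best known from cartilage. col11a1b had 81.9, 86.6, 71.1 and 52.4 TPM at 7 dpi, against 26.1, 13.9 and 32.3 at 60 dpi. It fell by 1.61 ± 0.41 on the log2 scale (SE, limma adjusted p = 0.0375), and the groups did not overlap. The call was lost without 7 dpi replicates 1, 2 or 3 or 60 dpi replicates 1 or 2 (adjusted p between 0.0680 and 0.135). COL11A1 (ENSDARG00000026165) had 4.31, 12.1, 3.54 and 3.78 TPM at 7 dpi, against 0.05, 0.03 and 0 at 60 dpi. It missed the threshold (adjusted p = 0.0607) but passed in 4 of 16 alternatives. These were no 7 dpi replicate 4 (0.0431), a pseudocount of 0.1 (0.0477), TPM rescaled over named IDs (0.0430) and no mean-variance trend (0.0425). With any other library left out it did not pass (0.103 to 0.162). COL11A1 reached 1 TPM in all 4 early pools and in none of the late ones. It thus entered the test only through the group in which it is high. The third type XI gene, COL11A2, had 4.23, 0.49, 0 and 0.02 TPM and then 2.84, 4.49 and 22.5 TPM, with overlap (adjusted p = 0.189).

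The remaining fibrillar IDs were of low abundance and none passed. col5a3a, a type V chain, had 16.2 to 30.3 TPM at 7 dpi, against 5.74 to 21.7 at 60 dpi (adjusted p = 0.316). col27a1b had 19.2, 15.5, 13.0 and 6.03 TPM and then 20.5, 20.0 and 48.1 TPM, without overlap (adjusted p = 0.308). COL2A1 (ENSDARG00000011407), the main cartilage collagen, had 0, 4.39, 0.51 and 0.08 TPM at 7 dpi, against 4.60, 6.96 and 6.40 at 60 dpi (adjusted p = 0.185). Cartilage markers summed to 91.5 to 237 TPM and 190 to 300 TPM in the groups, of which hapln1a made up the most. A SOX9 ID (ENSDARG00000003293), a cartilage transcription factor gene, had 24.0, 17.6, 18.8 and 2.80 TPM and then 48.3, 64.5 and 92.7 TPM, without overlap (adjusted p = 0.0530), and the other (ENSDARG00000043923) had 17.4 ± 12.7 and 4.59 ± 2.13 TPM (SD, n = 4 and n = 3; limma adjusted p = 0.301). MATN1 and cnmd, further cartilage genes, were at 0 in 1 and 3 of the 4 pools at 7 dpi and each in 2 of the 3 pools at 60 dpi. The part of such cells in the COL2A1 values was not tested. col24a1 had 7.90, 10.6, 4.54 and 0 TPM at 7 dpi, against 0.16, 0 and 0 at 60 dpi (adjusted p = 0.173, and 0.0297 without 7 dpi replicate 4). It reached 1 TPM in 3 of the 4 early pools and in none of the late ones. It thus entered the test only through the group in which it is high.

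FACIT chains moved in opposite directions. Type XII collagen, which decorates type I fibrils and is made in tissues under load and during repair, fell in both of its IDs, and col16a1, which encodes type XVI, a minor fibril- and microfibril-associated collagen of fibroblasts and smooth muscle in mammals, rose. The major COL12A1 ID (ENSDARG00000078322) had 644, 785, 890 and 442 TPM at 7 dpi, against 251, 346 and 218 at 60 dpi, which moved it from the 140th to the 385th most abundant ID. The minor one (ENSDARG00000019601) had 196, 226, 177 and 179 TPM and then 51.5, 63.3 and 89.9 TPM. Neither overlapped between the groups, and the log2 fold changes were -1.32 ± 0.30 (SE, limma adjusted p = 0.0222) and -1.53 ± 0.31 (adjusted p = 0.0125). The call of the major ID was lost without 7 dpi replicates 2 or 3 or 60 dpi replicates 1 or 4 (adjusted p between 0.0601 and 0.0786), and that of the minor ID was kept without any 1 of the 7 libraries.

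col16a1 had 79.4, 139, 159 and 140 TPM at 7 dpi, against 495, 261 and 358 at 60 dpi. It rose by 1.51 ± 0.34 on the log2 scale (SE, limma adjusted p = 0.0199), a call lost without 60 dpi replicate 1 (0.0796) or replicate 4 (0.0514) and with symbol-based or quantile scaling (0.0519 and 0.0638). Within each pool, both COL12A1 IDs together had 10.6, 7.25, 6.70 and 4.43 times the TPM of col16a1 at 7 dpi, and 0.612, 1.57 and 0.860 times at 60 dpi. In relation to the summed type I chains, COL12A1 had a ratio of 0.434 ± 0.0803 and 0.133 ± 0.0596, and col16a1 of 0.0626 ± 0.0105 and 0.133 ± 0.0145 (SD, n = 4 and n = 3). Each of these ratios separated the stages in all 7 pools and is a description of called members. The other tested FACIT IDs, COL14A1, col19a1 (ENSDARG00000076163) and col21a1, stayed under 10 TPM in every library and did not pass.

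**Figure D4:**
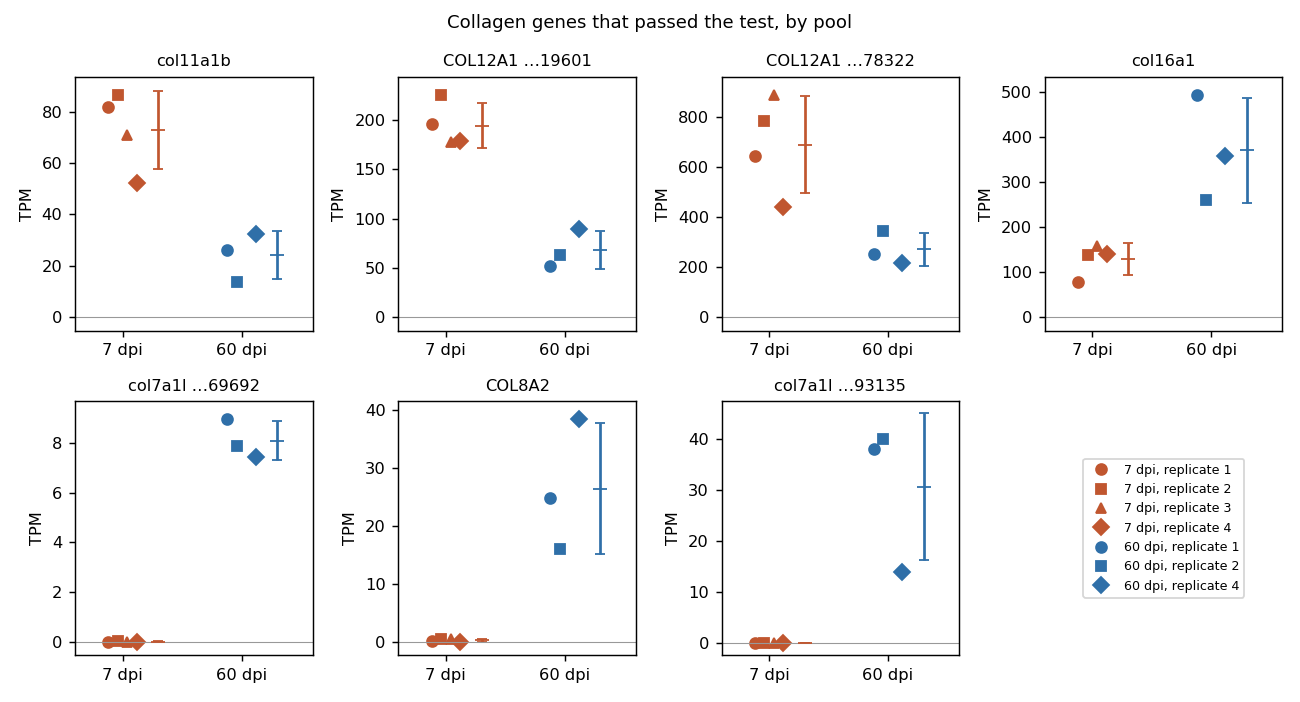
TPM in each pool of the 7 collagen IDs that passed limma's adjusted p of 0.05, on linear axes that differ between panels; bars give the mean and SD of each group. COL12A1 and col11a1b lie lower and col16a1, COL8A2 and col7a1l higher in every 60 dpi pool.

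The anchoring IDs col7a1l and the network ID COL8A2 rose from levels at or near 0. Both IDs named col7a1l, a gene named for its likeness to the anchoring fibril collagen gene COL7A1, rose. ENSDARG00000093135 was listed at 0 in all 4 pools at 7 dpi and had 38.0, 39.9 and 13.9 TPM at 60 dpi (limma adjusted p = 0.00481, kept in all 17 alternatives). ENSDARG00000069692 had 0, 0.01, 0 and 0 TPM and then 8.97, 7.89 and 7.46 TPM (adjusted p = 0.0164), a call lost without 7 dpi replicates 1, 2 or 3 (0.0538, 0.0679 and 0.0730) and with no filter on low TPM (0.0582). Both col7a1l IDs and COL8A2 reached 1 TPM in none of the 4 early pools and in all 3 late ones, so they entered the test only through the group in which they are high. The gene that carries the name col7a1 had 0.67, 0.33, 0.56 and 2.25 TPM at 7 dpi, against 0, 0.13 and 0.02 at 60 dpi and was too low to be tested. RSEM shares reads between similar transcripts, so the split between the col7a1l IDs is uncertain, as it is for other paralogs here. Collagen VII is best known from epithelia, and keratinocyte markers (4 IDs, none called) summed to 10.7 to 31.0 TPM at 7 dpi, against 29.2 to 34.4 at 60 dpi, with TP63 under 3 TPM in every library and krt5 at 0 in 3 of 4 and in 1 of 3 pools. Most of that sum was dsc2l, a desmosome gene, with 11.99 ± 1.83 TPM (SD, n = 4) and 24.9 ± 3.66 TPM (SD, n = 3), all 60 dpi pools above all 7 dpi pools (limma adjusted p = 0.258). The epicardium list (4 IDs) summed to 231 to 317 TPM and 384 to 606 TPM. Of these, krt4 was called higher at 60 dpi, with 103 ± 20.0 and 340 ± 93.2 TPM. TBX18 had 15.6 ± 4.17 and 43.6 ± 20.2 TPM, without overlap, and did not pass (limma adjusted p = 0.120). wt1b had 69.7 ± 6.89 and 84.1 ± 38.6 TPM. ALDH1A2 went the other way, with 79.3 ± 35.2 and 49.9 ± 17.9 TPM. Both wt1b and ALDH1A2 overlapped and did not pass. The part of either list's cells in the col7a1l values was not tested.

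COL8A2 encodes a short-chain collagen of hexagonal lattices, known from the basement membrane of the cornea and from vessel walls. It had 0.04, 0.41, 0.48 and 0 TPM at 7 dpi, against 24.7, 15.9 and 38.4 at 60 dpi, a rise of 4.41 ± 0.78 on the log2 scale (SE, limma adjusted p = 0.00702, kept in all 17 alternatives). The size of that rise depends on the pseudocount, with 6.61 at 0.1 and 2.52 at 5. The highest limma adjusted p among the alternatives was 0.0493, with the replicate number as a block. COL8A1 (ENSDARG00000003533), which encodes the other type VIII chain, was already present at 7 dpi, with 9.25 to 18.8 TPM against 13.6 to 25.6 TPM at 60 dpi, short of the threshold (adjusted p = 0.621). The paralog col8a1a was listed at 0 in 6 of 7 libraries.

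Basement membrane type IV was carried by the ubiquitous pair of COL4A1 and COL4A2, and neither passed. These chains join in 1 trimer, and their genes are next to each other in the RefSeq gene order of zebrafish. COL4A1 had 75.1, 133, 128 and 70.2 TPM at 7 dpi, against 189, 179 and 178 at 60 dpi, so all late pools lay above all early ones (log2 fold change 0.90 ± 0.33 SE, limma adjusted p = 0.133). COL4A2 had 50.4, 72.7, 77.4 and 48.7 TPM and then 129, 72.8 and 116 TPM, with overlap through replicate 2 (adjusted p = 0.247). The ratio of COL4A1 to COL4A2 was 1.44 to 1.83 at 7 dpi and 1.47 to 2.47 at 60 dpi. Endothelial cells also make these chains, and endothelial markers (5 IDs, none called) summed to 14.8 to 124 TPM and 72.3 to 104 TPM. The markers differed in direction. By mean, cdh5 (13.1 and 40.9 TPM) and kdrl (2.13 and 5.07 TPM) were higher at 60 dpi. FLI1 (37.5 and 30.0 TPM), TIE1 (7.76 and 6.58 TPM) and tek (2.85 and 0.553 TPM) were lower. All overlapped between the groups, and the part of endothelial cells in the type IV values was not tested. The other type IV chains, col4a3, COL4A4, col4a5 and col4a6, which form the tissue-restricted networks, stayed at or under 7.95 TPM in every library.

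Beaded collagen VI was abundant at both stages. Its alpha 1 chain col6a1 had 434 to 655 TPM at 7 dpi, against 375 to 749 at 60 dpi, and the alpha 2 chain COL6A2 had 210 to 311 TPM and 187 to 332 TPM, with adjusted p of 0.892 and 0.897. The alpha 3 chain COL6A3, the largest of the trimer and the source of endotrophin, had 298, 500, 539 and 520 TPM at 7 dpi, against 632, 790 and 583 at 60 dpi. Its groups did not overlap, but it did not pass (log2 fold change 0.55 ± 0.28 SE, limma adjusted p = 0.277). With TPM rescaled over named IDs its log2 fold change was 0.28. At 60 dpi replicate 2 had the least col6a1 and COL6A2 and the most COL6A3, so its ratio of COL6A3 to COL6A2 was 4.24, where the other 6 pools had 1.40 to 2.47. col6a4a had 93.6 ± 17.4 TPM (SD, n = 4) and 92.8 ± 15.2 TPM (SD, n = 3), with an adjusted p of 0.995. The type XXVIII IDs, col28a1a, col28a1b, col28a2a and col28a2b, stayed under 2 TPM.

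**Figure D5:**
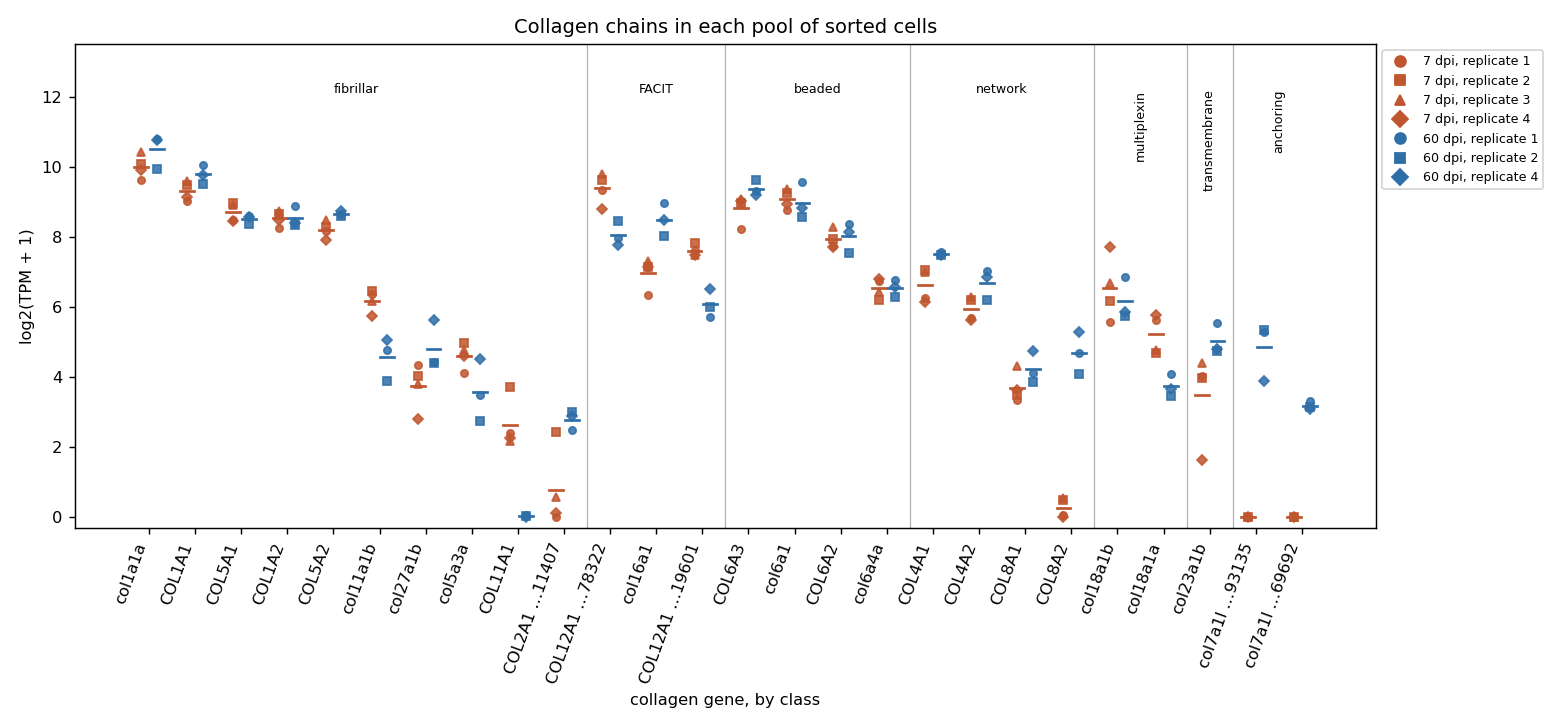
log2(TPM + 1) of the 26 collagen IDs described one by one, by class and by mean level, in each pool, with group means as lines. For each type I and type VI chain, COL5A1 and COL5A2 the means of the stages differ by less than 1 log2 unit, while col7a1l and COL8A2 rise from near 0.

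Multiplexin and transmembrane chains did not pass. col18a1a, a type XVIII gene, had 48.2, 24.7, 26.4 and 54.0 TPM at 7 dpi, against 15.9, 10.1 and 11.8 at 60 dpi, without overlap (limma adjusted p = 0.0955, and 0.0433 and 0.0343 with quantile and symbol-based scaling). Its paralog col18a1b had 46.7, 71.1, 101 and 207 TPM and then 115, 53.0 and 57.3 TPM (adjusted p = 0.728), and it was the more abundant of the pair in 6 of 7 pools. Among transmembrane collagens, col23a1b had 15.2, 14.8, 20.0 and 2.08 TPM at 7 dpi, against 45.8, 25.6 and 26.7 at 60 dpi, again without overlap (adjusted p = 0.222). Its paralog col23a1a had 0.86 to 2.55 TPM and then 0.46, 10.5 and 15.2 TPM (adjusted p = 0.419). The hemidesmosome collagen genes col17a1a and col17a1b, known from epidermis, stayed under 7 TPM.

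Genes that fold, process, crosslink, break down or bind collagen were given by a list of 80 entries, 74 of which matched 76 IDs, and 65 were tested. Of these 65, 3 rose and 4 fell, where 3.20% of all tested genes rose and 3.68% fell (6.88% in all). The 7 calls became 3 without 7 dpi replicate 2, 4 without 7 dpi replicate 3, 2 without 60 dpi replicate 2 and 4 without 60 dpi replicate 4. In folding and hydroxylation 1 of 19 rose, P4HA2, which encodes a catalytic subunit of prolyl 4-hydroxylase, with 14.6 ± 7.48 TPM at 7 dpi against 61.9 ± 14.9 TPM (SD, n = 4 and n = 3; limma adjusted p = 0.0407, lost without any 1 of 6 libraries, all but 7 dpi replicate 4, at 0.0519 to 0.142). SERPINH1 (ENSDARG00000019949), the collagen chaperone HSP47 gene and the most abundant of that step, had 283, 336, 216 and 383 TPM at 7 dpi, against 382, 1034 and 466 at 60 dpi (adjusted p = 0.148). The other SERPINH1 ID (ENSDARG00000075954) went the other way, with 40.2 ± 5.55 and 26.6 ± 8.28 TPM. Its groups overlapped, and it did not pass (limma adjusted p = 0.423). No member passed in export (7 tested) or propeptide removal (9 tested), where mia2, a gene of large-cargo export, had 74.8 ± 34.9 and 32.3 ± 8.60 TPM, and pcolcea, an enhancer of C-propeptide removal, 196 ± 12.4 and 379 ± 90.5 TPM (adjusted p = 0.162 and 0.0617).

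In crosslinking 1 of 7 rose, the lysyl oxidase gene loxl2a, with 104 ± 26.2 TPM at 7 dpi against 369 ± 102 TPM (limma adjusted p = 0.00707). An ID named LOXL2 (ENSDARG00000044074) had 64.9 ± 19.2 and 64.7 ± 6.39 TPM and did not pass (limma adjusted p = 0.969). In breakdown 4 of 13 fell and none rose, against the 3.68% of all tested genes that fell. CTSK, which encodes the collagen-cleaving cathepsin K, fell from 549 ± 123 to 150 ± 17.4 TPM (limma adjusted p = 0.00292). MMP14 (ENSDARG00000008388), a membrane collagenase gene, fell from 182 ± 22.8 to 60.9 ± 22.3 TPM (adjusted p = 0.0136). MMP15 (ENSDARG00000013072), another membrane-type protease gene, fell from 14.9 ± 6.38 to 0.383 ± 0.167 TPM (adjusted p = 0.0215), and MMP9, a gelatinase gene, from 21.1 ± 15.99 to 0.62 ± 0.765 TPM (adjusted p = 0.0352). None of the 4 overlapped between the groups. The MMP15 ID among them reached 1 TPM in every 7 dpi pool and in no 60 dpi pool. It thus entered the test only through the group in which it is high. The other MMP14 ID (ENSDARG00000002235) had 71.3 ± 7.86 and 59.1 ± 12.3 TPM (limma adjusted p = 0.694). The other MMP15 ID (ENSDARG00000051962) had 58.1 ± 9.80 and 27.9 ± 23.0 TPM (limma adjusted p = 0.186). Both overlapped between the groups and did not pass. TIMP2 (ENSDARG00000075261), an inhibitor gene and the most abundant of the step, had 485 ± 60.7 and 329 ± 53.6 TPM and did not pass (adjusted p = 0.217). The other TIMP2 ID (ENSDARG00000061226) went the other way, with 58.6 ± 20.0 and 119 ± 29.0 TPM. Its groups did not overlap, and it did not pass (limma adjusted p = 0.123). Leukocytes express several of these proteases, and the leukocyte sum was 3.66 times as high at 7 dpi as at 60 dpi in the same pools, and its part in these calls was not tested. The calls of MMP14, without 60 dpi replicate 2 (adjusted p = 0.0590), of MMP15, without 7 dpi replicates 2 or 3 or 60 dpi replicate 2 (0.0592 to 0.0842), and of MMP9, without 7 dpi replicates 1, 2 or 3 or 60 dpi replicates 2 or 4 (0.0759 to 0.111), were lost.

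Among the collagen receptors 1 of 10 tested rose, against 3.20% of all tested genes. DDR1, a receptor tyrosine kinase that binds collagen, had 1.96, 1.38, 2.70 and 0 TPM at 7 dpi, against 21.4, 14.5 and 45.4 at 60 dpi, a rise of 3.48 ± 0.81 on the log2 scale (SE, limma adjusted p = 0.0241). Its groups did not overlap, and the call was lost without 7 dpi replicate 2 or any 1 of the 60 dpi libraries (adjusted p between 0.0525 and 0.0890). A related DDR2 ID (ENSDARG00000100693) had 8.35, 7.07, 11.1 and 8.42 TPM and then 18.8, 27.4 and 27.3 TPM. It was also without overlap, and did not pass (limma adjusted p = 0.146). The other DDR2 ID (ENSDARG00000058695) went the other way, with 0, 0.53, 3.44 and 0 TPM and then 0 in every 60 dpi pool. It was too low to be tested. The related ddr2l had 24.25, 10.42, 11.76 and 17.68 TPM and then 26.25, 28.54 and 17.8 TPM. Its groups overlapped, and it did not pass (limma adjusted p = 0.539). ITGB1 (ENSDARG00000071863), the common beta chain of collagen-binding integrins and the most abundant receptor ID, had 46.3 ± 13.9 and 70.5 ± 22.6 TPM (SD, n = 4 and n = 3; adjusted p = 0.434).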

How the data were processed

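The authors deposited TPM values of 31388 gene IDs, 1 column for each of 7 libraries. RSEM 1.2.25, cutadapt, CASAVA 1.8.2 and build Zv9 are named in the submitters' processing notes; the aligner and the release of the annotation are not given in the sources used here. Per the labels' protocols, 0.2 to 0.6 ng of RNA was amplified and read as single 60 nt reads, so rare transcripts can be lost by chance. TPM keep no depth, and abundant transcripts of a library lower its other values. The gene name table named 25925 IDs (82.6%); 22 collagen IDs carry names in capitals and 5 symbols are shared by several IDs, so paralogs are told apart by ID. No genome of the files' build was used, so no coordinates are given. RefSeq (GRCz12tu) gave gene order only.

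Groups came from the sample titles. limma 3.58.1 (R 4.3.3) was fitted to log2(TPM + 1) for the 15130 IDs with at least 1 TPM in at least 3 libraries, with a mean-variance trend and no term other than dpi, and was tested on simulated data. P-values are two-sided and Benjamini-Hochberg adjusted over all tested IDs. They weigh the difference between the stages against the spread between these pools, which limma moderates with that of all tested genes. The log2(TPM + 1) scale understates changes of low genes. The members, lists and tests were chosen with earlier results of these data known. Described one by one were members that passed, those whose higher group mean reached 10 TPM, and those whose higher group mean reached 1 TPM with no overlap of the groups (26 IDs), and of the processing genes those that passed and the most abundant per step. COL11A2, col24a1, col23a1a, col7a1, the DDR2 IDs, ddr2l, LOXL2, ITGA1, ITGA2, MMP2, mmp13a, mmp13b, MRC2 and fap were added after their values were seen. So were the other ITGB1, MMP14, MMP15, SERPINH1 and TIMP2 IDs and the untested members named. List entries were matched by symbol or by symbol without the paralog letter (48 of 55 marker entries). Alternatives were 2 other pseudocounts, 2 other filters, 3 other scalings, no trend, the replicate number as a block, each library left out and replicate 4 left out of both groups (17 in all). Tables and figures were made in Python 3.11.15 with numpy 2.4.6, pandas 2.3.3 and matplotlib 3.10.9.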

Additional observations from a re-analysis of the deposited data

Results flagged for a closer look

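In 5 of 40 groups of 4 pools examined at 7 dpi, 1 pool stood apart from the other 3 by Dixon's criterion. Chance alone meets it in about 1 of 20 groups of independent, normally distributed values. The groups here were raw TPM, sums and shares, with values at 0 and members in common, so that rate need not hold for them. COL6A3 was lowest in replicate 1, with 298 TPM. COL11A1 was highest in replicate 2, with 12.1 TPM, as was COL2A1 (ENSDARG00000011407), with 4.39 TPM. The multiplexin share of the collagen TPM was highest in replicate 4, with 5.19%. col7a1l (ENSDARG00000069692) had 0.01 TPM in replicate 2 and was listed at 0 in the others, where any value above 0 meets the criterion.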

How the results depend on the processing

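COL8A2 and col7a1l (ENSDARG00000093135) passed limma's threshold in all 17 alternatives. COL12A1 (ENSDARG00000019601) lost its call in 2, COL12A1 (ENSDARG00000078322) in 7, col16a1 and col11a1b in 8 each, and col7a1l (ENSDARG00000069692) in 5 of the 16 that could be fitted for it. Higher collagen IDs numbered 2 with no filter and lower ones 1; lower ones numbered 1 with no mean-variance trend and 5 with TPM rescaled over named IDs, and 1 to 5 with a library left out. Over all genes 596 were called with no filter, 477 with no trend and 571 to 1127 with a library left out. Processing genes called numbered 4, 3 and 2 to 7 in that order. In place of 46.5% of calls, 31.5% were higher with TPM rescaled over named IDs. Values near 0 changed sign without passing: COL1A2 to -0.040, -0.33 and -0.27 with median-ratio, quantile and named-ID scaling and to between -0.17 and 0.10 with a library left out, COL6A2 to -0.12 and -0.17 with quantile and named-ID scaling, -0.027 without replicate 4 of both groups and between -0.082 and 0.33 with a library left out, col1a1a to -0.020 with quantile scaling, col18a1b to 0.17 without replicate 4 of both groups and between -0.72 and 0.018 with a library left out (0.018 without 7 dpi replicate 4), col6a1 to between -0.39 and 0.11 with a library left out (0.11 without 60 dpi replicate 2), and col6a4a to 0.069 without replicate 4 of both groups and to between -0.12 and 0.12 with a library left out. The cause was not tested. With the replicate number as a block, 322 genes, 2 collagen IDs (both higher), 0 lower ones and 2 processing genes were called; of the collagen IDs, 0.05 was missed by COL12A1 (0.0910 and 0.115), col16a1 (0.0921), col11a1b (0.164) and col7a1l ENSDARG00000069692 (0.0823). Deviations of same-numbered pools had correlations of 0.0054 to 0.0280 in 3 pairs, against -0.0237 to 0.0190 in pairs of other numbers. With so few pairs this cannot tell whether a number stands for a shared batch, which was not tested. Depth is unknown, so a listed 0 sets no limit.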

Other observations

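Several cartilage- or growth-plate-type chains were too low or too uneven to be tested or to pass, and their values stand by library. COL9A2, a FACIT gene of cartilage that lies next to col16a1 in the RefSeq gene order, had 0, 0.39, 0.46 and 0 TPM at 7 dpi, against 1.32, 14.04 and 0 at 60 dpi, and its partner gene col9a3 was listed at 0 in all 7 libraries. COL10A1 (ENSDARG00000101535), a network collagen of hypertrophic cartilage and of zebrafish bone, was listed at 0 in all 7 dpi pools and had 9.06, 6.64 and 0 TPM at 60 dpi. Others went the other way: COL9A1 had 0, 0.68, 2.79 and 0 TPM at 7 dpi, against 0.46, 0 and 0 at 60 dpi. col9a1b and the other COL10A1 ID (ENSDARG00000054753) were above 0 in 1 pool each, at 7 dpi, with 0.41 and 0.44 TPM. The bone markers SP7 and bglap stayed under 2 TPM in every library. Of 2 tendon marker IDs, SCX had 7.89, 17.8, 3.86 and 14.3 TPM at 7 dpi, against 5.73, 12.5 and 4.29 at 60 dpi, and TNMD had 8.71, 6.75, 4.50 and 0.09 TPM at 7 dpi, against 7.70, 34.8 and 9.50 at 60 dpi.

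col4a5 and col4a6, which also lie next to each other, both had their highest value in 7 dpi replicate 4, with 7.95 and 3.61 TPM, the library with the fewest detected IDs, and 0.84 TPM or less of col4a6 was found in the other 7 dpi pools.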
